A study of Mus musculus with 319 samples.

Results

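Ifi202b is an interferon-inducible gene of the mouse that lies on chromosome 1 among its relatives Ifi203, Ifi204 and Ifi205, and the array carried 1 probe for it, chosen by its probe number and its gene symbol. Its level was read on all 319 arrays of the series, as 1 of 23382 probes that include 12647 probes of 10831 named genes. Every array held muscle RNA of an F2 mouse, set against a common pool, and 2 arrays carry the same animal number in the labels. The F2 animals descended from C57BL/6J and C3H/HeJ parents. All of them, with no exception that the labels name, were ApoE null, included males and females, and ate a Western diet high in fat from week 8 to week 24 of age. The sample descriptions name 330 mice and the series design 319. The labels give no genotype and no treatment for any animal and a sex for 1 only, so the animals formed 1 group without a control group, and each array was counted as a replicate. Because ApoE deficiency and the diet were common to all animals, neither could be set against its absence.

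Ifi202b belongs to the PYHIN family of proteins, also called the p200 or Ifi200 family, whose HIN domains bind DNA. Unlike Aim2, the family member that assembles an inflammasome on cytosolic DNA, the Ifi202b protein has HIN domains but no pyrin domain, and it can hold Aim2 back. Interferons raise its transcription through the Jak and Stat proteins, and its level is known to differ between inbred strains, for which it has been studied as a candidate gene of lupus and of fat mass. Neighbouring genes in an intercross are inherited together in long segments, so a gene whose RNA differs between the parental alleles tends to vary together with others around it that do so too.

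The promoter windows of the genes that moved together are shown first, from RefSeq on the GRCm38.p6 assembly, which is the C57BL/6J sequence. The C3H/HeJ sequence was not used here. Capitals mark matches on either strand to the core of the interferon-stimulated response element, spelled GAAA, any 2 bases, GAAA, a motif of promoters that type I interferons switch on, or to the core of the gamma-activated sequence, TTCNNNGAA. The motifs were searched separately and did not overlap in the windows printed. The windows are chr1:173982795-173983094 (minus strand) for Ifi202b, chr1:173942443-173942742 (minus strand) for the second start of Ifi203, chr1:174031706-174032005 (minus strand) for Ifi205 and chr19:34583279-34583578 (plus strand) for Ifit3.
Ifi202b: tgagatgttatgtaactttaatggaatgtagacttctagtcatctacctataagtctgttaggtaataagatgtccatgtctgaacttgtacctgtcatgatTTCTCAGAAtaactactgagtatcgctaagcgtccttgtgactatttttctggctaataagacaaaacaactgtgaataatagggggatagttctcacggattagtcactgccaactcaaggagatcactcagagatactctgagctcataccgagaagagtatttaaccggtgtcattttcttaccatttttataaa
Ifi203: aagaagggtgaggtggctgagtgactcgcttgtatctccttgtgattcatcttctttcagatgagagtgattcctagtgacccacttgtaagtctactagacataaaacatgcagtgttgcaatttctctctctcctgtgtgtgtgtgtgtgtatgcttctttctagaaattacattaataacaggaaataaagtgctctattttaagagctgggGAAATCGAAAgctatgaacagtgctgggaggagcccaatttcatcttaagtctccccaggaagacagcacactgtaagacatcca
Ifi205: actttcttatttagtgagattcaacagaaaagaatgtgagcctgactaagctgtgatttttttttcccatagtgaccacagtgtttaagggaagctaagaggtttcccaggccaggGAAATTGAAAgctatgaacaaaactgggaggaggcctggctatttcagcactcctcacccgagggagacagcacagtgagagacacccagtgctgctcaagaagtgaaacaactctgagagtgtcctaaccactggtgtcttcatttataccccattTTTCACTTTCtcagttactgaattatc
Ifit3: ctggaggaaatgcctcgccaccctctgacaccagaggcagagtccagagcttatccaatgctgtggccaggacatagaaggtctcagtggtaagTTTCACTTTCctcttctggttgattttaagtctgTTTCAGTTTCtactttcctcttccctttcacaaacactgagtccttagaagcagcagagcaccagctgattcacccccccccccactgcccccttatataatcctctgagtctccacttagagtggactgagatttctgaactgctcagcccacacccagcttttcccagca

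The Ifi202b window held 1 match to the gamma-activated sequence and 0 matches to the response element. The window at the second start of Ifi203 held 1 response element match, the window at its other start held 0 matches to either motif and is not printed, that of Ifi205 held 2 and that of Ifit3 held 2. The Stat2 window, chr10:128270248-128270547 on the plus strand, held 1 and is not printed. Among 32851 promoter windows of 300 bases, 3.44% held the response element core and 8.30% the gamma-activated core. Ifi204 is named only. A match describes letters in the window and nothing was measured about binding.

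Across the series, 50721 pairs of arrays had a median correlation of 0.27, from -0.60 to 0.85, and 3753 pairs lay under -0.3. The labels state the dyes, Cy3 for the animal and Cy5 for the pool, and animals set against a pool of themselves can oppose each other, so the direction was kept. It was read from Eif2s3y, a gene of the Y chromosome that the pool of both sexes holds in part: 164 arrays lay below -3, 155 above -1 and 0 between, and the highest value was 1.49. A value above 0 thus stands for an animal whose RNA exceeded that of the pool. Ratios give no level of one gene against another. The tissue could not be checked by the presence of muscle genes on this scale, where the mean of 4 slow fibre genes ran from -4.76 through -0.43 to 1.46.

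Ifi202b varied far more between animals than most probes. Its log2 ratio to the pool, which is 0 where an animal equals the pool and rises by 1 for each doubling, was lowest at -2.84, had a median of -0.33 and was highest at 2.86. The 5th and 95th percentiles were -2.35 and 1.02, which is a 10.3-fold difference in RNA relative to the pool. The SD over the 319 arrays was 1.07, against a median SD of 0.23 over the tested probes, and 98.4% of them had a smaller SD. The level lay above the pool on 109 arrays and below it on 210. No array was without a value and 0 arrays lay at the limits of the deposited scale. The highest array stood apart from the second highest, which had 2.11.

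The values formed a shoulder at the low end and a long body above it. A mixture of 3 equally spaced normal components was preferred to a single normal distribution by 24.3 units of the Bayesian information criterion, and its components, with means of -1.92, -0.09 and 1.73 and a common SD of 0.56, stood 3.26 SDs apart. This passed the limits of 10 units and 3 SDs used for calling clusters. With the spacing left free, a setting added after the data were seen, the gain was larger, at 30.6 units, and the clusters held 74, 195 and 50 arrays, but the middle and upper means stood only 2.62 SDs apart, under the limit of 3. The lower cluster held 75 arrays between -2.84 and -1.20, the middle cluster 232 arrays between -1.13 and 1.25, and the upper cluster 12 arrays between 1.31 and 2.86. With weights held at 1:2:1, the proportions of genotypes at a locus of an F2, the gain was 15.3 units, the means were -1.86, -0.44 and 0.98, and the clusters held 74, 175 and 70 arrays. The lower cluster was therefore nearly alike under these 3 settings while the border between the other 2 clusters was not fixed by the values. No empty stretch divided the clusters, since the widest gap between neighbouring values from -1.8 to -0.8 was 0.099. No genotype is in the labels, so the clusters describe the values and are not called genotypes.

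**Figure D1:**
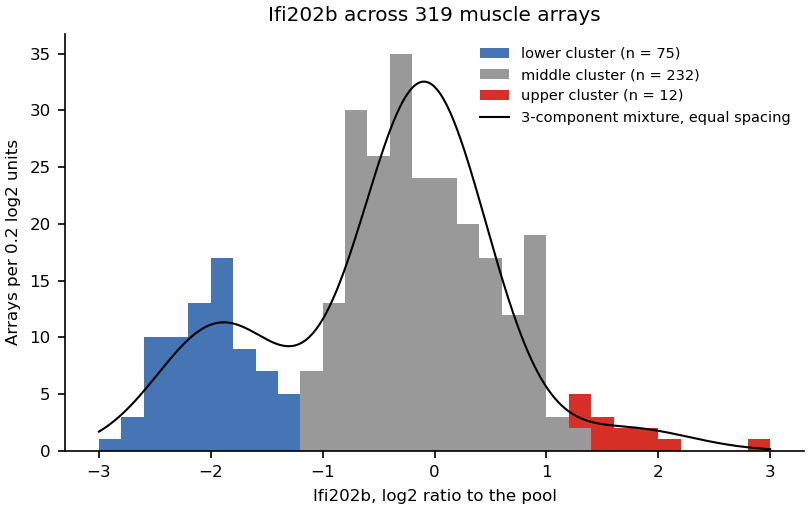
Number of arrays in bins of 0.2 log2 units of the Ifi202b ratio to the pool, with bars stacked by the cluster to which each array was assigned and the line giving the fitted mixture of 3 equally spaced components. The lower cluster of 75 arrays forms a separate hump around its median of -1.99, and the 12 arrays of the upper cluster form the tail.

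Every other probe was fitted on Ifi202b with limma over all arrays, and a probe was called where the adjusted p was under 0.05 (Benjamini-Hochberg over 23189 probes). The slope is the change of a probe's log2 ratio per 1 log2 unit of Ifi202b. A large part of the array passed: 3617 probes (15.6%) were higher with Ifi202b and 6924 (29.9%) lower, together 45.5%, which is the background for the counts that follow. Of the calls, 34.3% were higher ones here and 50.6% were with each array's median subtracted (4814 higher and 4709 lower). Since so many probes were called, a call alone set nothing apart, and the size of the relation is given too, with the correlation within the clusters for the genes closest to Ifi202b. With quantile normalization between arrays the calls fell to 2.89% of probes (393 higher and 277 lower). Because the arrays fell in clusters, no correlation over all arrays is given. Within each cluster Pearson r and Spearman rho were tested by two-sided permutation (100000 resamples, adjusted over 312 tests of 104 probes in 3 clusters). The lowest adjusted p these permutations gave was 5.47e-05. The middle cluster of 232 arrays takes in arrays that weights of 1:2:1 place in the upper cluster. Its r can therefore hold differences between those 2 clusters. With those weights, r passed as positive for 40 and as negative for 22 of the 104 probes in the middle cluster, against 47 and 34. Some of the 104 probes, among them Ppox, Top2a, Irs4 and Adgre1, were picked for their r with Ifi202b over these same arrays. The adjustment does not allow for that pick, so their small p-values describe the relation and are no separate support for it.

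The nearest relatives of Ifi202b on the chromosome rose with it. Ifi204, 2 measured genes before Ifi202b, encodes a DNA-binding PYHIN protein of myeloid cells and had 3 probes. On the first, log2 ratios ran from -2.43 through a median of -0.17 to 2.34. Its slope was 0.36 ± 0.024 (SE, n = 319; limma adjusted p = 1.45e-35). The second ran from -1.70 through -0.24 to 1.59, with a slope of 0.25 ± 0.024 (limma adjusted p = 8.00e-20). The third, with a slope of -0.026 ± 0.014, did not pass (limma adjusted p = 0.105), so the probes of Ifi204 disagreed.

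Within the clusters, the first Ifi204 probe had a larger r with Ifi202b in the middle than in the lower one. In the middle cluster r was 0.815 (rho 0.836, adjusted permutation p = 5.47e-05, r 0.813 without the 2 arrays farthest from the median). In the lower cluster it was 0.319 (rho 0.322, adjusted permutation p = 0.0181, 0.279 without the 2 farthest). In the upper cluster of 12 arrays r was 0.872 (rho 0.678, adjusted permutation p = 0.00647) but 0.380 without the 2 farthest, so the value there rested on those 2 arrays. The spread of Ifi202b differed between the clusters (SD 0.37, 0.57 and 0.44 in the lower, middle and upper), and the difference between their correlations was not tested.

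Ifi203, the measured gene next to Ifi202b on one side, encodes another PYHIN protein and had 2 probes. The first ran from -2.66 through a median of -0.35 to 1.56, and its slope was 0.25 ± 0.025 (SE, n = 319; limma adjusted p = 6.58e-18). Its r was 0.527 in the middle cluster (rho 0.603, adjusted permutation p = 5.47e-05) and 0.308 in the lower (rho 0.297, adjusted permutation p = 0.0235). The plot of single arrays shows some with high Ifi203 in every cluster. The other probe had a slope of -0.019 ± 0.016 and did not pass (limma adjusted p = 0.321). Ifi205, the measured gene next to Ifi202b on the other side, ran from -1.04 through -0.07 to 1.03 and had a slope of 0.12 ± 0.020 (limma adjusted p = 1.56e-07). Its r was 0.400 in the middle cluster (rho 0.431, adjusted permutation p = 5.47e-05) and 0.062 in the lower (rho 0.012, adjusted permutation p = 0.753).

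Of the PYHIN list, 4 of 6 probes were higher with Ifi202b and 0 lower, beside 15.6% and 29.9% of all probes. The median slope of the list was 0.19 against -0.0090 over all probes. At an unadjusted p under 0.05 the counts by limma were also 4 and 0. The 4 higher calls were made in every setting tried, while of the other 2 probes 1 was called lower with ranks of Ifi202b and 2 were called lower with Ppox as a covariate. Ifi202b and its relatives belong to 1 gene family, and how alike their RNA sequences are was not examined. The probe sequences were not used here, so how far a probe also bound RNA of a relative was not tested.

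Across the 25 measured genes on either side of Ifi202b, 56 probes of 50 genes were tested, of which 19 were higher and 12 lower. These are 33.9% and 21.4% of the neighbouring probes, beside 15.6% and 29.9% of all probes, and the median slope was 0.0028. A few of these genes carried strong relations. Dusp23, a dual-specificity phosphatase 10 genes before Ifi202b, ran from -1.73 through a median of 0.12 to 0.94 and fell with Ifi202b, with a slope of -0.25 ± 0.014 (SE, n = 319; limma adjusted p = 5.29e-45). Its r was -0.672 in the middle cluster (rho -0.679, adjusted permutation p = 5.47e-05) and -0.279 in the lower (rho -0.277, adjusted permutation p = 0.0452). Dcaf8, an adaptor of the Cul4 ubiquitin ligase, had a slope of -0.094 ± 0.011 and ran from -0.61 to 0.90, with r of -0.640 in the middle cluster and 0.021 in the lower.

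Of the neighbours that rose with Ifi202b over all arrays, some did not pass within the clusters. Casq1, the calsequestrin that buffers calcium in fast muscle fibres, ran from -2.26 through 0.08 to 1.06 and had a slope of 0.15 ± 0.024 (limma adjusted p = 7.67e-08). Its r was -0.266 in the lower cluster and 0.124 in the middle, and neither passed (adjusted permutation p = 0.0607 and 0.132). Pld5 (slope 0.089 ± 0.011) also missed the threshold in the middle cluster. Cep170, a centrosomal protein 12 genes after Ifi202b, had a slope of 0.16 ± 0.018, and its r of 0.319 in the middle cluster passed (adjusted permutation p = 5.47e-05), while that of 0.062 in the lower did not (0.753).

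Neighbours expressed in leukocytes were among the genes that rose. Slamf6, Cd84 and Slamf8, receptors of the SLAM family on lymphocytes and myeloid cells, had slopes of 0.37 ± 0.073, 0.21 ± 0.034 and 0.28 ± 0.054 (limma adjusted p = 1.91e-05, 1.04e-07 and 1.32e-05). In the middle cluster their r was 0.379, 0.597 and 0.514, and in the lower 0.331, 0.281 and 0.351, all past the threshold, though with weights of 1:2:1 that of Cd84 in the lower cluster was not (adjusted permutation p = 0.0534). Their limma calls ended with quantile normalization, where the slopes were 0.14, 0.067 and 0.055. Beside them, the lymphocyte markers were higher with Ifi202b on 8 of 11 probes and lower on 1, where 15.6% and 29.9% of all probes were. Their mean level ran from -2.38 through a median of -1.71 to 1.88 across arrays. On a ratio array no marker has a level of its own, so whether a cell type was absent could not be read. Bulk RNA does not tell more cells of a type from more RNA per cell.

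**Figure D2:**
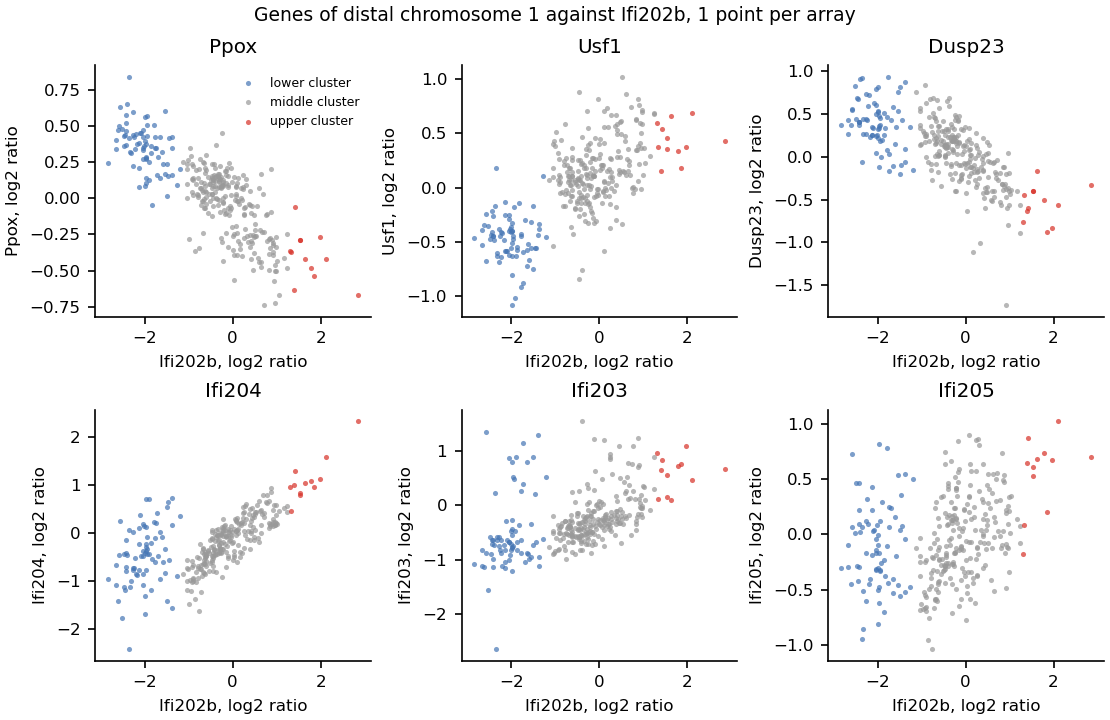
Log2 ratio to the pool of 6 genes of distal chromosome 1 (vertical) against that of Ifi202b (horizontal), 1 point for each of 319 arrays, coloured by Ifi202b cluster, with the probe of the largest t for each gene. Ppox and Dusp23 fall and Ifi204 rises across the lower and middle clusters, while Usf1 is low on nearly all 75 arrays of the lower cluster and spread above.

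Farther along the chromosome lay stronger relations than next to the gene. Ppox, which encodes protoporphyrinogen oxidase of haem synthesis, lies 38 measured genes before Ifi202b and had the largest moderated t of all 23189 probes. Its log2 ratio ran from -0.74 through a median of 0.07 to 0.84, and it fell with Ifi202b, with a slope of -0.22 ± 0.0088 (SE, n = 319; limma adjusted p = 1.37e-71). The relation held within the 2 larger clusters, with r of -0.418 in the lower (rho -0.439, adjusted permutation p = 0.000931) and -0.659 in the middle (rho -0.619, adjusted permutation p = 5.47e-05). With weights 1:2:1 its r was -0.406, -0.389 and -0.392 in the lower, middle and upper clusters, and each passed. Residual spread gives the size in another way: the SD of Ifi202b was 1.07, and 0.624 around a line on Ppox, a gene picked after its values were seen.

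Usf1, a helix-loop-helix transcription factor 33 genes before Ifi202b, ran from -1.08 through 0.06 to 1.02 and had a slope of 0.26 ± 0.014 (limma adjusted p = 2.47e-46). Its r was -0.095 in the lower cluster and 0.360 in the middle (adjusted permutation p = 0.581 and 5.47e-05). With weights 1:2:1 it was -0.100, 0.092 and 0.190 in the lower, middle and upper clusters, none of which passed. The second Usf1 probe, which spanned only -0.34 to 0.40, had a slope of 0.0063 ± 0.0061 and did not pass (limma adjusted p = 0.405).

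The 2 probes of Dusp12, a phosphatase 47 genes before Ifi202b, gave nearly the same slope, 0.20 ± 0.012 and 0.20 ± 0.014, and had r of 0.419 and 0.395 in the middle cluster. Nme7, of the nucleoside diphosphate kinase family, lay 72 genes before Ifi202b and had a slope of 0.33 ± 0.029 (limma adjusted p = 1.48e-22), with r of 0.099 and 0.171 in the lower and middle clusters. Gas5, a non-coding RNA that hosts small nucleolar RNAs, lay 89 genes before it with a slope of -0.24 ± 0.025, and r of 0.065 and -0.164 in the same clusters. For Nme7 and Gas5 a large slope over all arrays thus stood beside a weak correlation within each cluster.

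Relations of this strength thinned out with distance. On chromosome 1, 613 named genes were measured, 536 before Ifi202b and 76 after it. An absolute t over 8, a limit chosen after the values were seen, was reached by 47 of all probes, against a median absolute t of 2.09 and a 99th percentile of 6.19. Of these 47, 20 were named probes of chromosome 1, 9 were named probes elsewhere and 18 had no name here (6 positive and 12 negative). Within 50 genes of Ifi202b on either side lay 13 of the 20, with 4 more at 51 to 100 genes, 1 at up to 200 and 2 at up to 400. The farther ones were Phlda3, a gene induced by p53 (151 genes before, slope -0.37 ± 0.031), Slc35f5, a transporter (206 genes before, 0.28 ± 0.033), and Pign, an enzyme of the anchor that holds proteins on the membrane (235 genes before, 0.091 ± 0.0095). In the middle cluster their r was -0.462, 0.223 and 0.484, all past the threshold, though with weights of 1:2:1 that of Slc35f5 was not (adjusted permutation p = 0.155), and in the lower cluster none passed. Beyond 400 genes the largest absolute t was 6.01, of Hs6st1. The share of probes called at an adjusted p under 0.05 was 58.3% within 10 genes, 63.5% at 51 to 100 genes and 41.0% beyond 400, beside 45.5% over all probes.

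**Figure D3:**
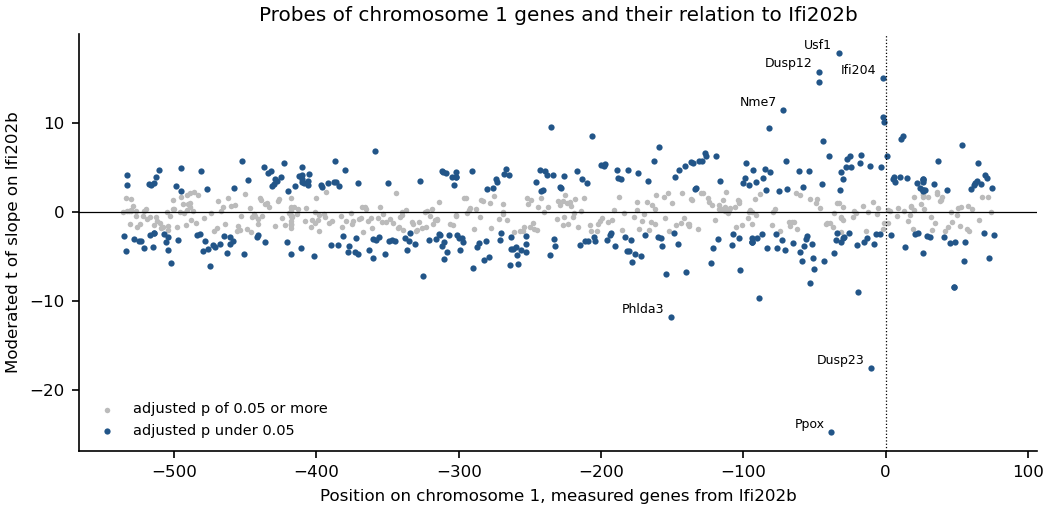
Moderated t of each named chromosome 1 probe on Ifi202b (vertical) against its place in the order of measured genes, with Ifi202b at 0 (horizontal), blue where the adjusted p was under 0.05. Ppox, Dusp23, Usf1, Dusp12 and Ifi204 stand out between 47 genes before Ifi202b and the gene itself, on a background in which many probes pass the threshold.

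Some probes on other chromosomes followed Ifi202b as closely. Among named probes elsewhere, that of most negative r was Top2a on chromosome 11, the topoisomerase of dividing cells, which ran from -2.12 through a median of 0.10 to 1.30. It had a slope of -0.48 ± 0.025 (SE, n = 319; limma adjusted p = 6.88e-51). A second Top2a probe had a slope of 0.14 ± 0.045 (limma adjusted p = 0.00702), so the 2 probes of this gene ran in opposite directions. Irs4 on chromosome X, an adaptor of the insulin receptor family, ran from -2.38 through 0.11 to 1.26 and had a slope of -0.43 ± 0.023 (limma adjusted p = 4.28e-48).

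The first Top2a probe and Irs4 also followed each other. Their r was 0.940 in the lower cluster, 0.979 in the middle and 0.854 in the upper (rho 0.955, 0.989 and 0.867, adjusted permutation p = 4.5e-05, 4.5e-05 and 0.000135 over 27 tests). With Ppox, Top2a had r of 0.462 and 0.772 in the lower and middle clusters and Irs4 had 0.453 and 0.714, all past the threshold. Ppox, Top2a and Irs4 were all picked for their r with Ifi202b over these same arrays, and these pairs were set after that pick. Their p-values make no allowance for it and are no separate support. The probe sequences were not used here, so whether these probes measured the RNA they are named for was not tested. Dppa4 on chromosome 16, a gene of pluripotent cells, had a slope of -0.098 ± 0.0097, while its other probe, at -0.0066 ± 0.0064, did not pass (limma adjusted p = 0.405).

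Next to Top2a, Irs4 and Dppa4, the named probes of most negative r elsewhere were small in slope, between -0.097 and -0.035: Gcat, Twf2, Ubxn1, Pard6a, Ubox5 and both probes of Cdk4, the cyclin-dependent kinase. Among named probes elsewhere, the largest positive t was that of 6430590A07Rik on chromosome 3, with a slope of 0.27 ± 0.026 (limma adjusted p = 2.70e-19). Ptpro on chromosome 6 had a slope of 0.25 ± 0.029. Among the 10 of most positive r elsewhere, several encode receptors of macrophages and other myeloid cells. Adgre1, which encodes the F4/80 antigen, ran from -1.82 through a median of -0.31 to 1.88, with a slope of 0.25 ± 0.028 (limma adjusted p = 3.77e-14). Mrc1, the mannose receptor, had 0.25 ± 0.030, and the lectins Clec4a1 and Clec4a2 had 0.18 ± 0.020 and 0.21 ± 0.024. In the middle cluster r was 0.719 for Adgre1, 0.706 for Mrc1 and 0.716 for Clec4a2 (adjusted permutation p = 5.47e-05 each). In the lower cluster it was 0.241, 0.20 and 0.293 (adjusted permutation p = 0.0916, 0.18 and 0.0334). These probes were picked for their r over the same arrays, for which the p-values make no allowance.

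**Figure D4:**
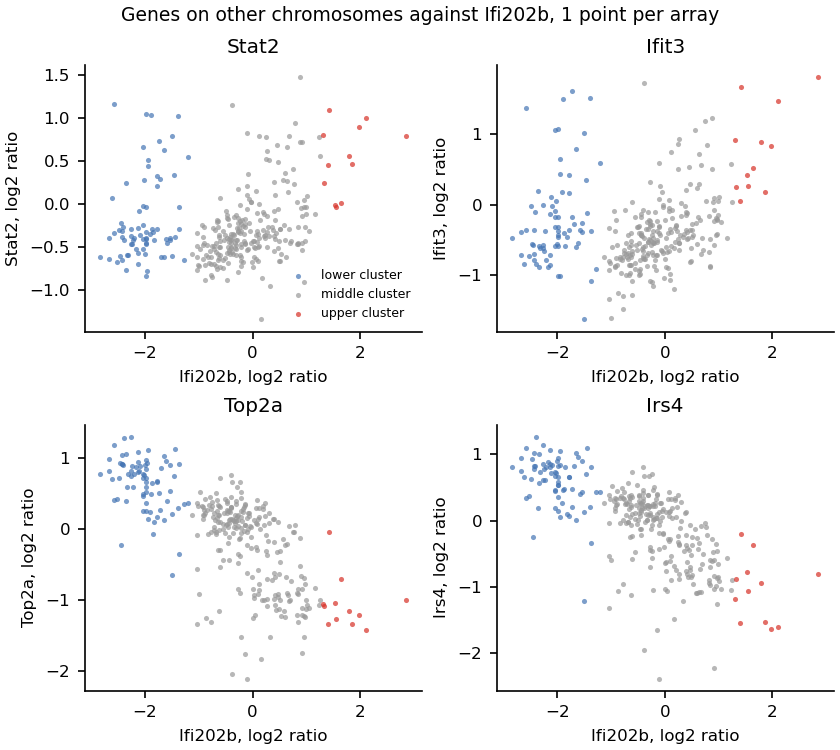
Log2 ratio to the pool of Stat2, Ifit3, Top2a and Irs4 (vertical) against Ifi202b (horizontal), 1 point for each of 319 arrays, coloured by Ifi202b cluster, with the first Top2a probe shown. Stat2 and Ifit3 rise within the middle cluster and are scattered in the lower one, and Top2a and Irs4 share 1 pattern.

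Interferon genes on other chromosomes rose with Ifi202b as well, but their calls depended on the scaling. Of all symbols that begin with Ifi, Ifit and Ifitm genes included, 18 probes of 14 genes were tested, of which 13 probes of 11 genes were higher and 0 lower, against backgrounds of 15.6% and 29.9%. At an unadjusted p under 0.05 limma also gave 13 and 0. On other chromosomes 9 of 12 probes were higher. Quantile normalization gave 2 higher calls there, taking out the first component gave 3, and cell marker scores as covariates gave 0 higher and 1 lower (Ifi27). At an unadjusted p under 0.05 limma gave 0 higher and 2 lower with the cell marker scores. Ifi47, an interferon-induced GTPase, had a slope of 0.19 ± 0.042, Ifit2, which binds foreign RNA, 0.16 ± 0.028, and Ifih1, the cytosolic RNA sensor Mda5, 0.11 ± 0.021 (limma adjusted p = 8.38e-05, 2.41e-06 and 1.52e-05). Ifi44l (0.072 ± 0.030) and Ifi27 (0.057 ± 0.020) passed with smaller slopes. The slope of Ifi44l turned to -0.021 with quantile normalization, and with the cell marker scores that of Ifi47 was -0.00021 and that of Ifi27 -0.035. Ifi30, Ifitm1 and Ifitm7 had 0.019 ± 0.012, 0.060 ± 0.038 and 0.018 ± 0.017 and did not pass. In the middle cluster r was 0.499 for Ifi47, 0.599 for Ifit2 and 0.570 for Ifih1. There 13 of the 18 probes had a positive r past the threshold and 1 a negative one, the third probe of Ifi204. In the lower cluster these counts were 7 and 0. Over all 104 probes tested within clusters, the counts were 47 and 34 in the middle cluster and 19 and 7 in the lower. Only chosen probes were tested within clusters, so no share over the whole array stands beside these counts.

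Stat2, which carries the signal of type I interferons to the nucleus, ran from -1.35 through a median of -0.37 to 1.47. Its slope was 0.10 ± 0.023 (SE, n = 319; limma adjusted p = 0.000153). Ifit3, a target of that signal, ran from -1.63 through -0.43 to 1.81 and had a slope of 0.12 ± 0.030 (limma adjusted p = 0.000522). In the middle cluster r with Ifi202b was 0.438 for Stat2 (rho 0.446, 0.410 without the 2 farthest arrays) and 0.467 for Ifit3 (rho 0.499, 0.452 without them), both with an adjusted permutation p of 5.47e-05. In the lower cluster r was 0.255 (rho 0.242, 0.202 without the 2 farthest) and 0.214 (rho 0.258, 0.180 without them), and neither passed (adjusted permutation p = 0.0702 and 0.143). In the upper cluster r was 0.348 and 0.577, and 0.094 and -0.011 without the 2 farthest arrays.

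Stat2 and Ifit3 followed each other more closely than either followed Ifi202b. Their own r was 0.890, 0.825 and 0.754 in the lower, middle and upper clusters (adjusted permutation p = 4.5e-05, 4.5e-05 and 0.0156). With Ppox they had r between -0.039 and 0.024 in the lower and middle clusters, and none passed. With Ppox as a covariate, added after the data were seen, the slope of Stat2 on Ifi202b was 0.26 and that of Ifit3 0.33 (limma adjusted p = 5.98e-09 and 1.28e-08).

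The calls of Stat2 and Ifit3 ended under other settings. Their slopes were 0.020 and 0.025 with quantile normalization (limma adjusted p = 0.561 and 0.585). They were -0.0037 and 0.0057 with the first principal component, 18.3% of the variance, removed (limma adjusted p = 0.830 and 0.864). With marker scores of 7 cell types as covariates they were -0.015 and -0.0098 (limma adjusted p = 0.408 and 0.797). The same settings kept the calls of Ppox, Usf1, Dusp23, Ifi205 and the first probes of Ifi204 and Ifi203, whose slopes were -0.22, 0.31, -0.22, 0.064, 0.21 and 0.16 with the marker scores as covariates.

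The wider interferon response behaved likewise. Of 44 probes of 42 genes, 32 were higher with Ifi202b and 2 lower, beside 15.6% and 29.9% of all probes. The median slope of the list was 0.099 against -0.0090 over all probes. Cxcl10 and Cxcl9, chemokines that draw T cells, had 0.24 ± 0.064 and 0.23 ± 0.058, and B2m, the light chain of MHC class I, 0.20 ± 0.037 (limma adjusted p = 0.00102, 0.000680 and 3.03e-06). The lower ones were Xaf1, which promotes cell death, at -0.034 ± 0.0074, and Oas3, a sensor of double-stranded RNA, at -0.020 ± 0.0067. With quantile normalization limma called 0 of 44 higher and 0 lower (8 and 2 at an unadjusted p under 0.05), where 1.69% and 1.19% of all probes were called. With the cell marker scores it called 0 higher and 3 lower (1 and 11 at an unadjusted p under 0.05), where 9.27% and 9.12% of all probes were called. The median slope of the list was then -0.015. With the first component removed it called 4 higher and 4 lower, where the shares over all probes were 10.0% and 10.9%.

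**Figure D5:**
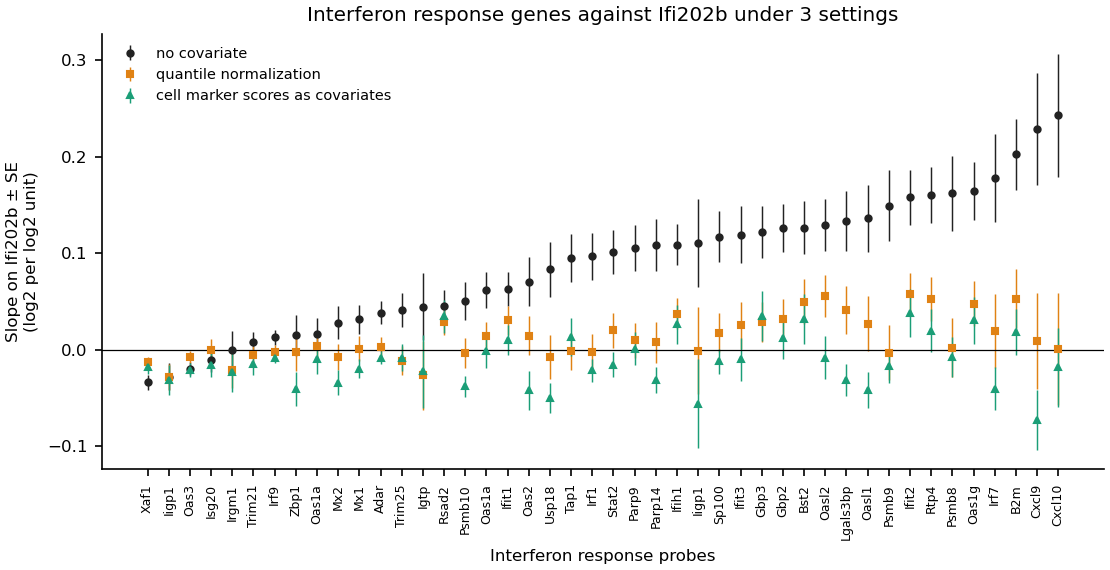
Slope of each of 44 interferon response probes on Ifi202b with its SE (vertical), in the order of the slope without covariates (horizontal), with no covariate, with quantile normalization and with cell marker scores as covariates. Without a covariate most slopes lie above 0, around a median of 0.099, and in the other 2 settings they lie on both sides of 0 or near it.

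Macrophage markers rose with Ifi202b. All 13 of 13 macrophage probes were higher with Ifi202b, beside 15.6% of all probes. Their median slope was 0.21, led by Ctss (0.48 ± 0.063), Mpeg1 (0.34 ± 0.055) and Fcgr1 (0.28 ± 0.039). Of the 13, Fcer1g (0.20 ± 0.033) and Fcgr3 (0.25 ± 0.032) lie on chromosome 1, 40 and 44 measured genes before Ifi202b, near Ppox and Dusp12. Both also enter the macrophage score among the cell marker covariates. With quantile normalization 6 of the 13 passed, with a median slope of 0.088, and with the first component removed 9 passed, with 0.079. Their mean level ran from -1.60 through a median of -0.51 to 1.58. Among lymphocyte markers, Cd22, Cd2 and Ltb had 0.39 ± 0.11, 0.35 ± 0.081 and 0.27 ± 0.083, while Ccr7 was lower at -0.029 ± 0.012. With quantile normalization limma called 0 of the 11 probes in either direction (0 at an unadjusted p under 0.05), and with the first component removed 0 were higher and 9 lower (median slope -0.088), which turned the direction. A setting added after the data were seen left out the 56 arrays above a cut in the lymphocyte score. The cut was placed where it best split the scores into a lower and an upper group. Whether an empty stretch lay there was not examined. Without those arrays 21 of the 44 interferon probes were higher and 3 lower. The slopes of Stat2 and Ifit3 were then 0.053 and 0.086 and still passed (limma adjusted p = 0.00414 and 0.00187). With 263 arrays left, the count of higher interferon calls and the slope of Stat2 thus fell by over 1.5 times. Calls over all probes fell too, from 15.6% to 11.9% higher and from 29.9% to 17.0% lower.

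Fewer of the other cell markers passed. Of the neutrophil markers 2 of 7 were higher (S100a9 at 0.24 ± 0.086 and S100a8 at 0.15 ± 0.061) and 1 lower (Elane), and of the adipocyte markers 2 of 6 (Scd1 and Plin1) were higher and 0 lower. With quantile normalization or with the first component removed, 0 of these 2 lists passed in either direction (limma, with 1 adipocyte probe lower at an unadjusted p under 0.05 after quantile normalization). Endothelial markers had 1 of 5 lower (Kdr), keratinocyte markers 1 of 4 lower (Krt1), and the 5 erythroid and the 4 slow muscle fibre markers had 0 calls and 0 at an unadjusted p under 0.05 by limma. Over all probes 15.6% were called higher and 29.9% lower, and the lower calls in these short lists did not exceed that share.

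Among genes of DNA sensing and the inflammasome, 5 of 10 were higher with Ifi202b and 2 lower, beside 15.6% and 29.9% of all probes. Pycard, the adaptor of the inflammasome, had 0.25 ± 0.047, Casp4, which senses lipopolysaccharide, 0.18 ± 0.033, and the cytokine Il18 0.16 ± 0.030 (limma adjusted p = 6.50e-06, 6.92e-06 and 1.06e-05). The lower ones were Nlrp3, a sensor of the inflammasome, at -0.028 ± 0.0063, and Trex1, which degrades cytosolic DNA, at -0.034 ± 0.014. With the first component removed the slopes of Pycard, Casp4 and Il18 were 0.020, 0.033 and 0.013, and none passed. Of the receptors and kinases of interferon signalling, 3 of 11 were higher, Stat2, Ifngr1 (0.081 ± 0.015) and Ifnar2 (0.064 ± 0.018), and 1 was lower, the kinase Tyk2 (-0.026 ± 0.0095). In both lists the share called lower was under that over all probes.

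Of 7 measured genes for proteins that Ifi202 proteins are known to bind and their targets, Rb1, the retinoblastoma protein, and Cdkn1a, the p21 inhibitor of the cell cycle, were higher (0.063 ± 0.020 and 0.051 ± 0.022; limma adjusted p = 0.00611 and 0.0470) and 0 were lower. With quantile normalization neither passed (limma adjusted p = 0.162 and 0.0649), and Cdkn1a also lost its call with ranks of Ifi202b, without the arrays of outlying SD and without the 2 farthest arrays, among other settings. Of 8 glucocorticoid and fat genes, 4 were higher and 0 lower. The shares called higher were 28.6% of the 7 and 50% of the 8, beside 15.6% of all probes. The share called lower was 0% in both lists, beside 29.9%. Whether such short lists differ from all probes was not tested. Scd1, which makes monounsaturated fatty acids, had 0.13 ± 0.042, Plin1, the coat of fat droplets, 0.13 ± 0.039, and Hsd11b1, which regenerates active glucocorticoid and lies 70 measured genes after Ifi202b, 0.11 ± 0.027 (limma adjusted p = 0.00585, 0.00455 and 0.000307). Their slopes were 0.00088, 0.0087 and 0.033 with quantile normalization, and none passed there.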

How the data were processed

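Muscle RNA of F2 mice was measured on 319 arrays of 2 colours, each against a common pool. The deposited table holds log10 ratios of 23382 probes, limited at -2 and 2. The base and the direction are not given in the labels and were read from the values, as were the limits. The background correction and normalization by the authors are not given in the sources used here. Ratios were converted to log2. Arrays have no read depth, and their number limits the precision. Blanks were 0.654% of the values.

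Of the probes, 13639 have 1 symbol in the platform annotation, 48 several and 9695 none, and 12647 of them were named through RefSeq gene IDs (GRCm38.p6). That build is not known to be the one of the probe design, so it gave names, gene order and promoters only. The fit took the 23190 probes, Ifi202b among them, whose values covered 80% of arrays or more, and 192 were left out.

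limma 3.58.1 (R 4.3.3; lmFit and eBayes) fitted each probe on Ifi202b over all arrays, with Benjamini-Hochberg adjustment and a threshold of 0.05. It was tested on simulated data. Mixtures, permutation tests (two-sided) and counts were made in Python 3.11.15 with scipy 1.17.1. Each array joined the cluster of its highest posterior probability. Nothing in the labels says that animals were unrelated or arrays independent, so p-values measure the spread between these arrays. The labels give 2 arrays the number 227, and a setting without them was run.

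The genes and lists were chosen with earlier results of these data known. Genes named are Ifi202b, the 25 measured named genes on either side, symbols beginning with Ifi, Stat2, Ifit3, the 3 largest slopes past the threshold in each direction per list, and the 10 named probes of most positive and most negative Pearson r, on chromosome 1 and elsewhere, together with other probes of those genes. Scaling, principal component, ranks, limits, blanks, cell markers, animal order and outlying arrays were varied. The interferon score, Ppox, the cut in the lymphocyte score and the mixture of free spacing were added after the data were seen. So were the correlations within clusters of weights 1:2:1 and the 27 tests between pairs of other genes. The mixture with weights 1:2:1 was planned.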

Additional observations from a re-analysis of the deposited data

How the results depend on the processing

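The named chromosome 1 probes of absolute t over 8 and the 4 called PYHIN probes kept their direction and their calls in every setting, except that Gas5, both probes of Bpnt1, Rgs5, Pld5 and Slc35f5 lost theirs with Ppox as covariate. Probes higher with Ifi202b numbered 393 after quantile normalization, 2325 once the first principal component was taken out, 2149 with cell marker scores as covariates and 1796 with the interferon score, and probes lower numbered 277, 2525, 2115 and 2420. Without the arrays above the cut in the lymphocyte score 3950 were lower. Of the neighbours 13 were called with quantile normalization and 20 with the interferon score. Of the Ifi symbols 6, 7, 5 and 8 were called with quantile normalization, the component removed, cell markers and the interferon score. Of the interferon response probes 0, 4, 0 and 5 were higher in the same 4 settings (8, 8, 1 and 7 by limma at an unadjusted p under 0.05), and 21 without the lymphocyte-rich arrays. The interferon score is made of those probes, so that setting takes their own values out. The slope of Ifit3 was 0.025, 0.0057, -0.0098 and 0.0037 and that of Stat2 0.020, -0.0037, -0.015 and 0.0051 in these settings, with the limma adjusted p over all alternatives from 1.28e-08 to 0.872 for Ifit3 and from 5.98e-09 to 0.830 for Stat2. Of called neighbours and Ifi symbols, the sign turned, with the component removed, in Kmo (-0.041), Exo1 (-0.0057), Coq8a (0.0079), Psen2 (-0.018), Ifi47 (-0.0056) and Ifi27 (-0.015). With cell markers it turned in Slamf8 (-0.038), Kmo (-0.011), Coq8a (0.019), Psen2 (-0.021), Parp1 (0.0011), Ifitm2 (-0.014), Ifit3 (-0.0098), Ifi47 (-0.00021) and Ifi27 (-0.035). With Ppox as covariate it turned in Rgs7 (-0.0029) and Parp1 (0.0014), and with quantile normalization in Ifi44l (-0.021). Of the 34 called interferon response probes quantile normalization turned the sign of 7, removing the component that of 17 and cell markers that of 20, among them Usp18 (-0.043 and -0.050) and Psmb10 (-0.034 and -0.038) in the last 2. The cause was not tested. No paired analysis was possible because the animals form 1 group.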
